A study of Equus caballus with 8 samples.

Results

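The genes described here are the Notch ligands JAG1, JAG2 and DLL1, the Notch receptors NOTCH1, NOTCH2 and NOTCH3, and the target genes HES1, HEY1, HEY2 and HEYL in mesenchymal stem cells from equine bone marrow (BM-MSCs). They were chosen by gene symbol, and all 10 had a row among the 15266 named genes of the deposited table. BM-MSCs, the stromal cells that grow on plastic from sternal marrow, came from horses D, J, L and W, 4 animals that the study describes as Thoroughbred or Thoroughbred-cross adults. Each horse gave an untreated culture and one kept in recombinant human TGF-β2 at 1 ng/ml, so that there were 4 untreated and 4 treated libraries, paired by horse. Both groups were grown in low-glucose DMEM with fetal bovine serum and antibiotics, to which the study's methods add basic fibroblast growth factor. The labels describe treatment from isolation through passage 3 or 4, while the study's methods give 3 passages. The cells were primary bulk cultures, in which fewer cells of a type and less RNA per cell cannot be told apart.

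Notch signalling passes between touching cells. A ligand of the Jagged or Delta-like family on one cell binds a Notch receptor on the next, the receptor is cut by ADAM metalloproteases and then by γ-secretase, and its freed intracellular domain enters the nucleus. There it joins the DNA-binding protein RBPJ and a Mastermind coactivator and switches on genes such as those of the HES and HEY families, which encode transcriptional repressors. In marrow stroma and in the cells around blood vessels the pathway is known for its part in the choice between stem cell maintenance and differentiation.

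Between 39184554 and 57228675 reads were assigned to named genes per library. The values are normalized counts, in which the reads of a gene are set against the size factor of their library. They are not divided by gene length, so the level of a gene is compared between libraries. Where a sum over genes or the highest level in a list is given, gene length was not allowed for. Changes are given as the log2 fold change (log2FC) on the scale of log2(normalized count + 1), which understates those of low genes. A gene was called when its Benjamini-Hochberg adjusted p over all 14907 genes tested was under 0.05 and its absolute log2FC was over 1, the thresholds of the study, in limma with the horse as a block. All adjusted p below come from this fit unless another tool is named. The stromal markers ENG, THY1, NT5E, CD44 and ITGB1 were read in all 8 libraries. However, THY1 was called lower in treated cells (log2FC -2.21), as were PDGFRA and CXCL12 (-3.81 and -5.57). PDGFRB was lower in every horse without being called (log2FC -0.71), and LEPR had no row. Of 8 genes known to respond to TGF-β, 4 were called higher, PMEPA1, CTGF, SKIL and TGFBI, with log2FC values of 3.06, 1.67, 1.61 and 1.57. The other 4 were not called, with 0.024 for SMAD7, -0.13 for LTBP2, -0.24 for ID3 and -0.67 for ID1. The untreated library of horse J stood apart for some leukocyte genes. It had 112 normalized counts of the T-cell gene CD3E, against 0 to 16.2 in the other 7 libraries. The leukocyte gene PTPRC had 109.7 there, against 1.19 to 41.5. Other haematopoietic markers did not share this. SPI1, TYROBP and ITGAM had 1.35, 1.35 and 20.9 in that library. They had 52.8, 73.5 and 38.6 in untreated cells of horse L, and 25.4, 33.5 and 51.7 in those of horse W.

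All 3 ligands and 2 of the 4 HES/HEY genes rose after TGF-β2 treatment, 1 HEY gene fell, and no receptor was called. In full, 5 of the 10 genes were called higher (JAG1, JAG2, DLL1, HES1 and HEYL), 1 was called lower (HEY1), and 4 were not called (NOTCH1, NOTCH2, NOTCH3 and HEY2). Among all genes tested, 6.83% were called higher and 7.31% lower. At an adjusted p under 0.05 and any fold there were 7 of 10, with NOTCH1 as the addition, against 30.9% of all genes tested. The untreated and treated libraries did not overlap for 5 of the 10 genes, against 27.8% of all genes tested. The median log2FC was 0.96 over the 10 genes and 0.01 over all genes tested. The 10 genes and the lists below were chosen with earlier results of these data known, so such comparisons with all genes are a description only. All 10 genes passed the filter on low values, which asked for at least 10 normalized counts in at least 4 libraries, but HEYL passed it only through the treated libraries and therefore had to differ.

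**Figure D1:**
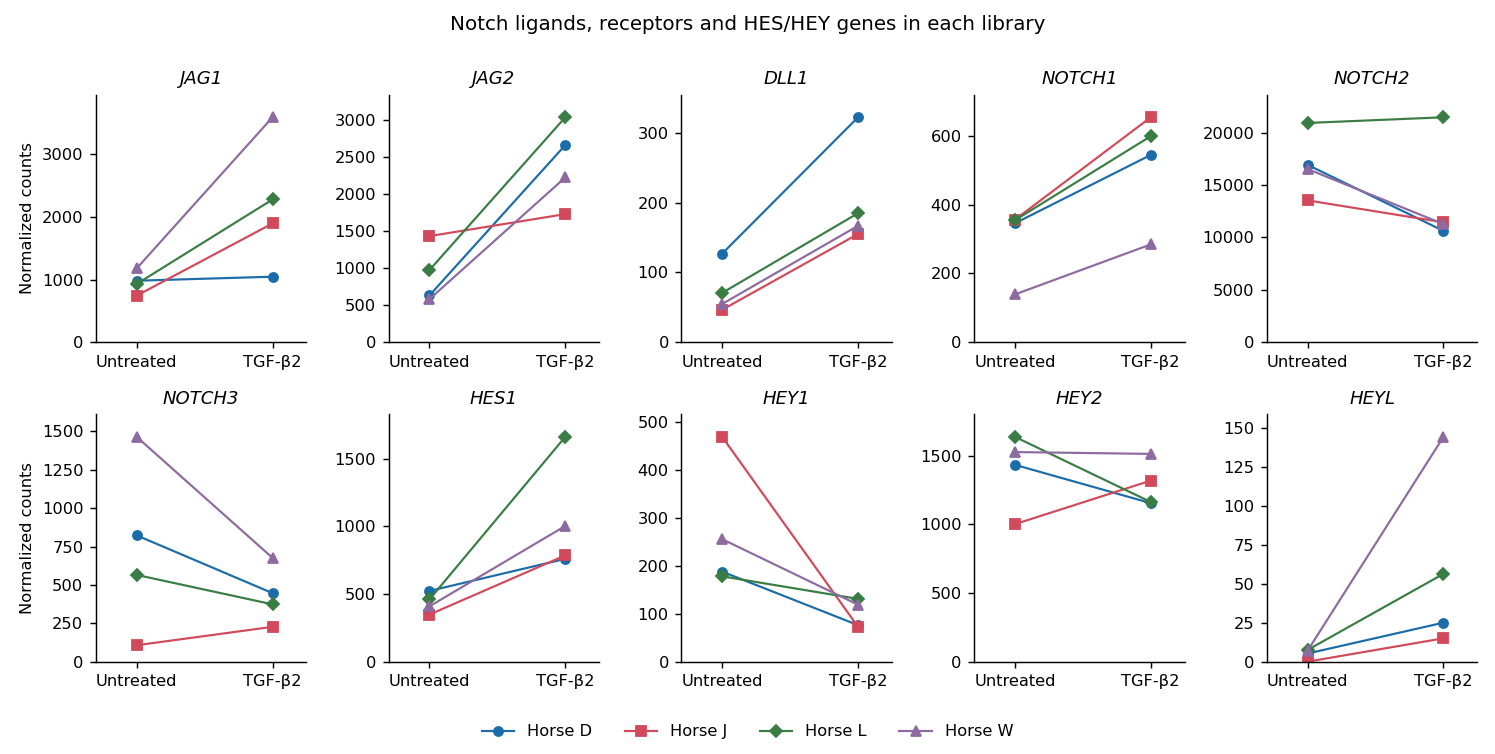
Normalized counts (vertical axes, linear and starting at 0, with a separate scale for each gene) of the 10 Notch genes in the untreated and the TGF-β2-treated library of each horse, with 1 marker and line for each horse. The lines of JAG2, DLL1, HES1 and HEYL rise and those of HEY1 fall without overlap between the groups, and those of NOTCH3 and HEY2 run in both directions. For HEYL the filter on low values fixed this lack of overlap.

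DLL1, a Delta-like ligand, rose by nearly the same factor in every horse. Its untreated libraries held 127 (horse D), 46.5 (J), 70.7 (L) and 54.8 (W) normalized counts, and the treated libraries 323, 155, 185 and 167 in the same order. Every treated library lay above every untreated one, and horse D had the highest level in both groups. The means were 74.7 ± 36.3 and 208 ± 77.8 (SD, n = 4). The log2FC of DLL1 was 1.51 with a standard error of 0.16, a 2.84-fold rise, and the limma adjusted p was 0.00377. Within single horses it ran from 1.34 to 1.72. DLL1 stayed called with any single horse left out and under each other processing tried.

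JAG2, a Jagged ligand, had 629 (horse D), 1430.0 (J), 971 (L) and 579 (W) normalized counts in untreated cells. In treated cells it had 2657, 1727, 3033 and 2221. The groups did not overlap, but horse J began with the highest untreated level and ended with the lowest treated one. Its log2 change in horse J was 0.27, against 1.64 to 2.08 in the other 3 horses. Over all horses JAG2 rose by a log2FC of 1.48 (standard error 0.31), with a limma adjusted p of 0.0206. JAG2 was not called without horse D, L or W, with limma adjusted p of 0.0895, 0.0666 and 0.0993, although its log2FC stayed at 1.28, 1.43 and 1.33. Without horse J it was called, with a log2FC of 1.89.

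JAG1, the other Jagged ligand, ranged little between horses in untreated cells, with 981 (horse D), 743 (J), 929 (L) and 1178 (W) normalized counts. The treated libraries held 1046, 1897, 2279.7 and 3593. Horse D thus stayed almost level, with a log2 change of 0.09, and its treated library lay within the range of the untreated ones, whereas the other 3 horses rose by 1.29 to 1.61. The log2FC of JAG1 was 1.09 (standard error 0.26), close to the threshold of 1, and the limma adjusted p was 0.0292. Without the horse as a block the limma adjusted p was 0.0518 and JAG1 was not called, nor was it without horse J, L or W, where the log2FC was 1.00, 1.02 and 0.91, or with libraries scaled to equal totals, where it was 0.77 and the limma adjusted p 0.0521. The horse in which JAG1 moved least, D, was the one in which JAG2 moved most, and JAG2 moved least in horse J.

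Of the receptors, NOTCH1 was higher in the treated library of every horse. It had 346 (horse D), 357 (J), 355 (L) and 139 (W) normalized counts in untreated cells and 546, 655, 600.1 and 285 in treated cells. Horse W lay far below the others in both groups, so that its treated library fell within the range spanned by the untreated ones. The log2FC of NOTCH1 was 0.83 (standard error 0.12, 95% confidence interval 0.52 to 1.14), short of the fold threshold, with a limma adjusted p of 0.00824. Its change ran from 0.65 to 1.03 within single horses. Without the horse as a block the adjusted p of NOTCH1 from limma was 0.154.

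NOTCH2 was read at 16917 (horse D), 13525 (J), 20917 (L) and 16519 (W) normalized counts in untreated cells, and at 10615, 11435, 21456 and 11264 after treatment. In treated cells horse L lay far above the other 3 horses, and it also had the highest level in untreated cells. The log2FC of NOTCH2 was -0.36 (95% confidence interval -0.71 to -0.01), with a limma adjusted p of 0.107. Its change was negative in 3 horses, from -0.67 to -0.24, and 0.04 in horse L. Reads of fibronectin and type I collagen (COL1A1, COL1A2 and FN1) made up 0.881% to 6.27% of untreated and 10.3% to 14.4% of treated libraries. Scaling the libraries to equal totals moved the median log2FC of all genes by -0.31, and NOTCH2 then stood at -0.67 with a limma adjusted p of 0.0156, still not called.

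NOTCH3, a receptor known from the smooth muscle and pericytes of vessels, differed widely between horses in untreated cells, 13.7-fold from the lowest to the highest library. It had 823 (horse D), 107 (J), 565 (L) and 1465 (W) normalized counts without treatment and 447, 227, 374 and 676 with it. The changes were negative in 3 horses, -0.88 in horse D, -0.60 in L and -1.11 in W, and that of horse J was 1.08. The treated libraries spanned 2.98-fold. The log2FC over all horses was -0.38, with a 95% confidence interval of -1.32 to 0.56 and a limma adjusted p of 0.479. Without horse J the log2FC of NOTCH3 was -0.86 and the limma adjusted p 0.00916, which is past the p threshold and short of the fold threshold.

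**Figure D2:**
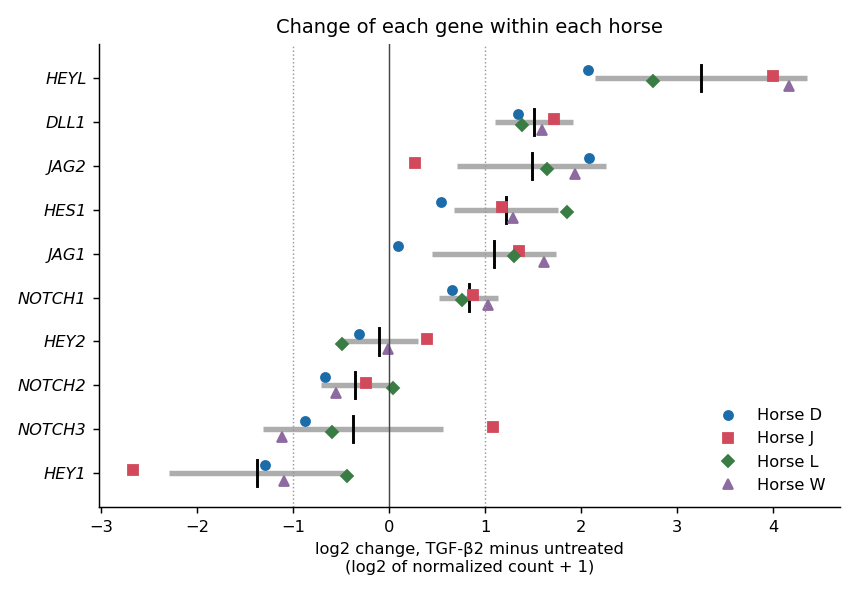
Log2 change from the untreated to the treated library within each horse (horizontal axis, log2 of normalized count + 1) for each gene, with 1 marker for each horse, a black line at the mean and a grey bar for the 95% confidence interval from limma with the horse as a block. The dotted lines mark the fold threshold of 1, and the 4 markers of DLL1 and of NOTCH1 lie close together while those of NOTCH3, JAG1, JAG2 and HEY1 include a horse apart from the other 3.

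HES1, which encodes a basic helix-loop-helix repressor and is the best known target of Notch, rose in all 4 horses. Its untreated libraries were close to each other, with 523 (horse D), 348 (J), 459.8 (L) and 409 (W) normalized counts. The treated libraries held 759.9, 786, 1662 and 1003, all above the untreated ones, with horse L highest. The log2FC of HES1 was 1.21 (standard error 0.22), a 2.32-fold rise, with a limma adjusted p of 0.0133. Its change ran from 0.54 in horse D to 1.85 in horse L. HES1 was not called without horse W, where its log2FC was 1.19 and the limma adjusted p 0.0738, nor with total scaling, where its log2FC was 0.90.

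HEYL had very few reads without treatment and more with it. The untreated libraries held 5.22 (horse D), 0 (J), 7.54 (L) and 7.10 (W) normalized counts, which were 6, 0, 8 and 7 reads. A count of 0 reads allows a level of up to 2.02 normalized counts in that library, which covers counting error only, since reads copied by PCR are not independent molecules. The treated libraries held 25.0, 15.0, 56.3 and 144 normalized counts, from 21, 14, 49 and 120 reads. Each treated library lay above every untreated one, which the filter on low values had fixed, since all untreated libraries were under 10 normalized counts. The treated levels themselves spanned 9.62-fold, with horse W highest and horse J lowest. The log2FC of HEYL was 3.24 (standard error 0.44), with a limma adjusted p of 0.00653, but its size depends on the pseudocount, being 3.55 with 0.5 and 2.37 with 5. The ratio of the group means was 12.1. HEYL stayed called with any single horse left out, with log2FC values of 2.94 to 3.64. Those fits kept the genes filtered on all 8 libraries, so the direction of HEYL was fixed in them too.

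HEYL and NOTCH3 are also known from contractile vessel-wall cells, so the list of 10 smooth muscle and mural markers, which includes NOTCH3, was read beside them. All 10 had a row, 3 were called higher (ACTA2, TAGLN and CNN1) and 1 lower (MCAM), beside 6.83% and 7.31% of all genes tested. The summed level ranged from 94907 to 326129 normalized counts in untreated and from 360621 to 906395 in treated libraries. ACTA2 and TAGLN held most of it, with 31682 and 52562 in the lowest library and 515281 and 303935 in the highest. Of those not called, RGS5 and NOTCH3 had log2FC values of -0.31 and -0.38, and LMOD1, MYOCD and CSPG4 of 0.96, 1.16 and 0.35. MYH11, a defining marker of mature smooth muscle, had a log2FC of -0.12 with levels from 173 to 5511, and none of the 10 was at 0. The part of these genes in the change of HEYL was not tested.

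HEY1, a HEY-family repressor, was the gene that fell. Its untreated libraries held 188 (horse D), 469 (J), 178 (L) and 256 (W) normalized counts, and the treated ones 76.2, 72.8, 131 and 119. The groups did not overlap, and horse J went from the highest untreated to the lowest treated level. The log2FC of HEY1 was -1.37 (standard error 0.37, 95% confidence interval -2.30 to -0.45), with a limma adjusted p of 0.0405. The decrease ran from -0.44 in horse L to -2.67 in horse J. HEY1 was not called without horse J, where its log2FC was -0.94 and the limma adjusted p 0.0282, or without horse D or W, where its log2FC was -1.40 and -1.47 and the limma adjusted p 0.130 and 0.123. In the untreated library of horse J the summed level of the 8 haematopoietic markers with a row was 2895 normalized counts, against 678 to 1099.6 in the other untreated and 537 to 893 in the treated libraries, with CD68 making up 2437 of it. SPI1, TYROBP and ITGAM of the same list were instead lower in untreated cells of horse J than in those of L and W. The part of haematopoietic cells in the level of HEY1 was not tested.

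HEY2, also a HEY-family repressor, differed by less than the spread between horses. It had 1433 (horse D), 1001 (J), 1637 (L) and 1526 (W) normalized counts without and 1154, 1318, 1162 and 1513 with treatment. The log2FC of HEY2 was -0.11, with a 95% confidence interval of -0.51 to 0.30 and a limma adjusted p of 0.649. It was negative in 3 horses and 0.40 in horse J. The 3 HEY genes thus had changes of opposite sign, HEYL higher, HEY1 lower and HEY2 between them, and their signs were the same under total scaling.

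The other genes of the pathway were listed by role. Of 76 such genes 65 had a row and 64 were tested, of which 3 were called higher and 5 lower, 12.5% in all, against 14.1% of all genes tested. The median log2FC of the 64 was -0.03. As a share, the called genes of the pathway were thus close to the background, and single genes are described below. They lay in 5 groups, the non-canonical ligands, the genes of receptor modification and ligand endocytosis, those of receptor turnover, the transcription complex and the co-repressors. Neither DLL3, the remaining Delta-like ligand with a row, nor the receptor NOTCH4 was called. DLL3 had 17.5 to 18.3 normalized counts in untreated and 14.4 to 23.8 in treated libraries, with a log2FC of 0.07 that was -0.23 under total scaling. NOTCH4 had 10.4 to 21.3 and 5.35 to 13.1 normalized counts, with a log2FC of -0.81 and a limma adjusted p of 0.0788. NOTCH4 was called under total scaling, at -1.10 with an adjusted p of 0.0260 from limma. DLL4, an endothelial ligand, had no row.

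**Figure D3:**
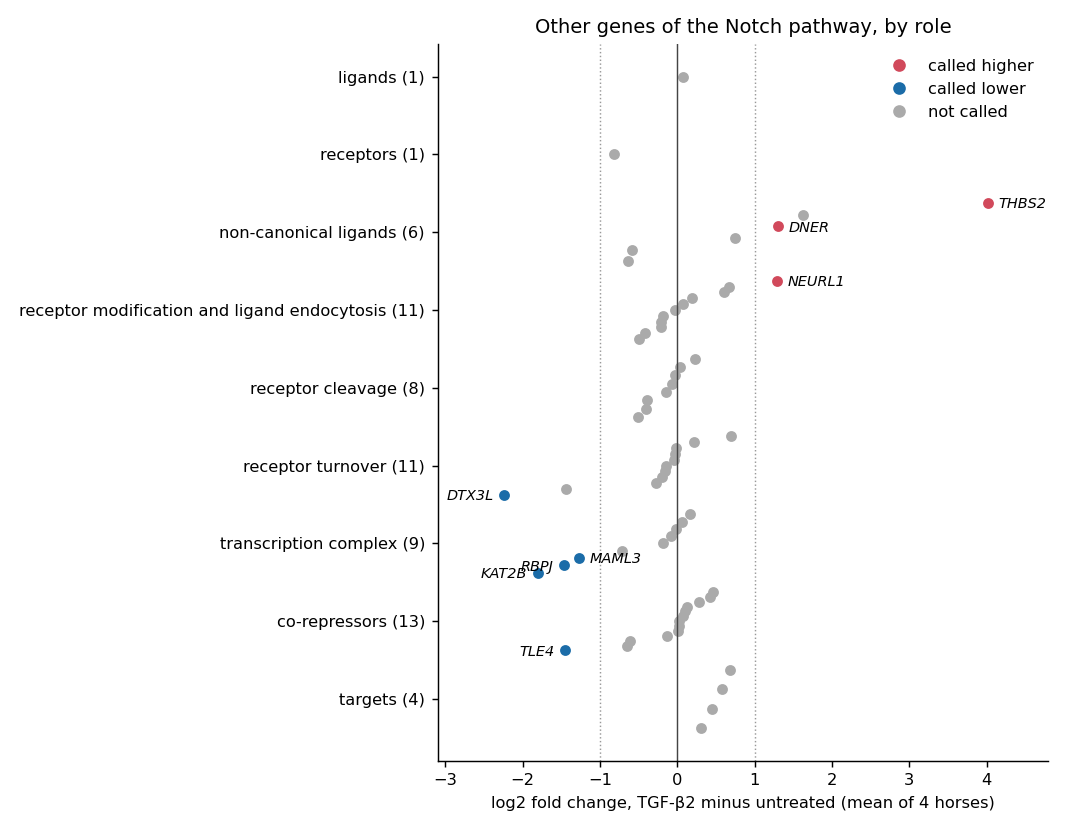
Mean log2FC (horizontal axis, TGF-β2 minus untreated, over 4 horses) of the 64 other Notch pathway genes tested, grouped by role (vertical axis, with the number of genes in brackets), 1 point for each gene. The called genes are named, 3 to the right of the upper fold threshold and 5 to the left of the lower one, and the genes of receptor cleavage all lie between -0.51 and 0.23.

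Of the 9 genes of the transcription complex tested, 3 were called lower and 0 higher, beside 7.31% lower and 6.83% higher among all genes tested. RBPJ, the DNA-binding partner of every Notch receptor, had 21935 (horse D), 19614 (J), 9239 (L) and 18987 (W) normalized counts in untreated and 7207, 5656, 5438 and 5872 in treated cells. All 4 treated libraries lay below the lowest untreated one, that of horse L, in which the change was smallest. The log2FC of RBPJ was -1.46 (standard error 0.19), 2.76-fold lower, with a limma adjusted p of 0.00559. MAML3, a Mastermind coactivator, went from 1673, 1876, 1961 and 1540.1 normalized counts to 629, 802, 955 and 577 in horses D, J, L and W. It fell by a similar amount in each horse, between -1.42 and -1.04, with a log2FC of -1.27 and a limma adjusted p of 0.00202.

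KAT2B, a histone acetyltransferase that is recruited with Mastermind, had the largest decrease of the complex. Its untreated libraries held 2250.0 (horse D), 2815 (J), 2129 (L) and 3652 (W) normalized counts, and the treated ones 677, 599.5, 1000.2 and 807. The groups lay well apart. The log2FC of KAT2B was -1.81 (standard error 0.21), with a limma adjusted p of 0.00425. TLE4, a Groucho-family corepressor with which HES proteins act, was the called gene among 13 co-repressors and was also lower. That share is 7.69%, beside 14.1% of all genes tested. It had 5336, 5045, 3437 and 6262 normalized counts in untreated and 1770.0, 2079, 1532 and 1839 in treated cells of horses D, J, L and W, with a log2FC of -1.45 and a limma adjusted p of 0.00219. RBPJ, MAML3, KAT2B and TLE4 stayed called with any single horse left out, without the horse as a block, with total scaling and in DESeq2 and edgeR.

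**Figure D4:**
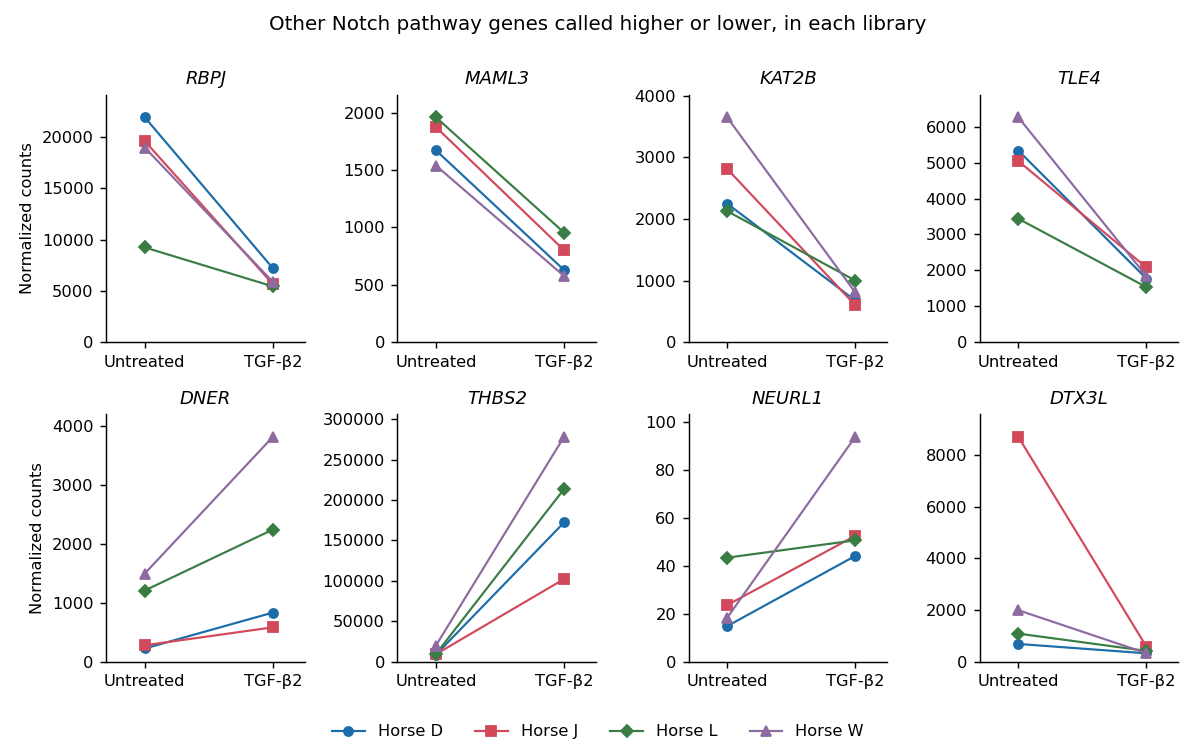
Normalized counts (vertical axes, linear and starting at 0, with a separate scale for each gene) of the 8 other Notch pathway genes called, in the untreated and the TGF-β2-treated library of each horse. RBPJ, MAML3, KAT2B, TLE4 and DTX3L fall in all 4 horses, with the untreated library of horse J at 8703 for DTX3L, and DNER, THBS2 and NEURL1 rise in all 4.

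Among 6 non-canonical ligands tested, 2 were called higher, beside 6.83% of all genes tested. THBS2 encodes thrombospondin-2, a matrix protein that can bind Notch receptors and ligands and has many other partners. It rose from 8682 (horse D), 9234 (J), 9548 (L) and 19961 (W) normalized counts to 172258, 102229, 213642 and 278244, a log2FC of 4.02 with a limma adjusted p of 0.00100. The treated libraries were all far above the untreated ones. DNER, a transmembrane protein with EGF-like repeats described as a Notch ligand in nerve tissue, had 224, 278, 1207 and 1494 normalized counts in untreated and 833, 582, 2241 and 3813 in treated cells of horses D, J, L and W. It rose in every horse, by 0.89 to 1.89, while its level divided the horses, D and J low and L and W high in both groups. The log2FC of DNER was 1.30, with a limma adjusted p of 0.00678, but 0.280 without the horse as a block, where it was not called, and its log2FC was 0.99 with total scaling.

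NEURL1, which encodes a ubiquitin ligase of the Neuralized family that acts in ligand endocytosis, had 14.8 to 43.3 normalized counts in untreated and 44.1 to 93.7 in treated libraries. Its log2FC was 1.29 and its limma adjusted p, 0.0492, lay at the threshold. NEURL1 was not called with edgeR (adjusted p 0.0543), with no filter, with total scaling or without horse D, J or W. DTX3L, a Deltex-family ubiquitin ligase that is also induced by interferon, had 686 (horse D), 8703 (J), 1086 (L) and 1993 (W) normalized counts in untreated and 323, 583, 417 and 328 in treated cells. It fell in all 4 horses, and the untreated library of horse J again stood apart. The log2FC of DTX3L was -2.24 with a limma adjusted p of 0.0212, and it was -1.69 and called without horse J. It was not called without the block, where the limma adjusted p was 0.0510, or without horse W, where it was 0.101.

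None of the 8 genes that cut the receptor was called, beside 14.1% of all genes tested. At a limma adjusted p under 0.05 and any fold their share was 25.0%, against 30.9%. Their log2FC values ran from -0.51 to 0.23. The lowest was that of the protease gene ADAM10, with a limma adjusted p of 0.0210. NCSTN, the nicastrin subunit of γ-secretase, had the highest mean level of the 8 and went from 8409 ± 916 to 6359.7 ± 542 normalized counts (SD, n = 4), which is a log2FC of -0.40 with a limma adjusted p of 0.0177. Of the 4 other target genes tested, 0 were called, beside the same 14.1% of all genes tested. BHLHE40, a basic helix-loop-helix factor with the highest mean level of these, had a log2FC of 0.58 and a limma adjusted p of 0.0176, which was 0.0659 without the horse as a block.

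**Figure D5:**
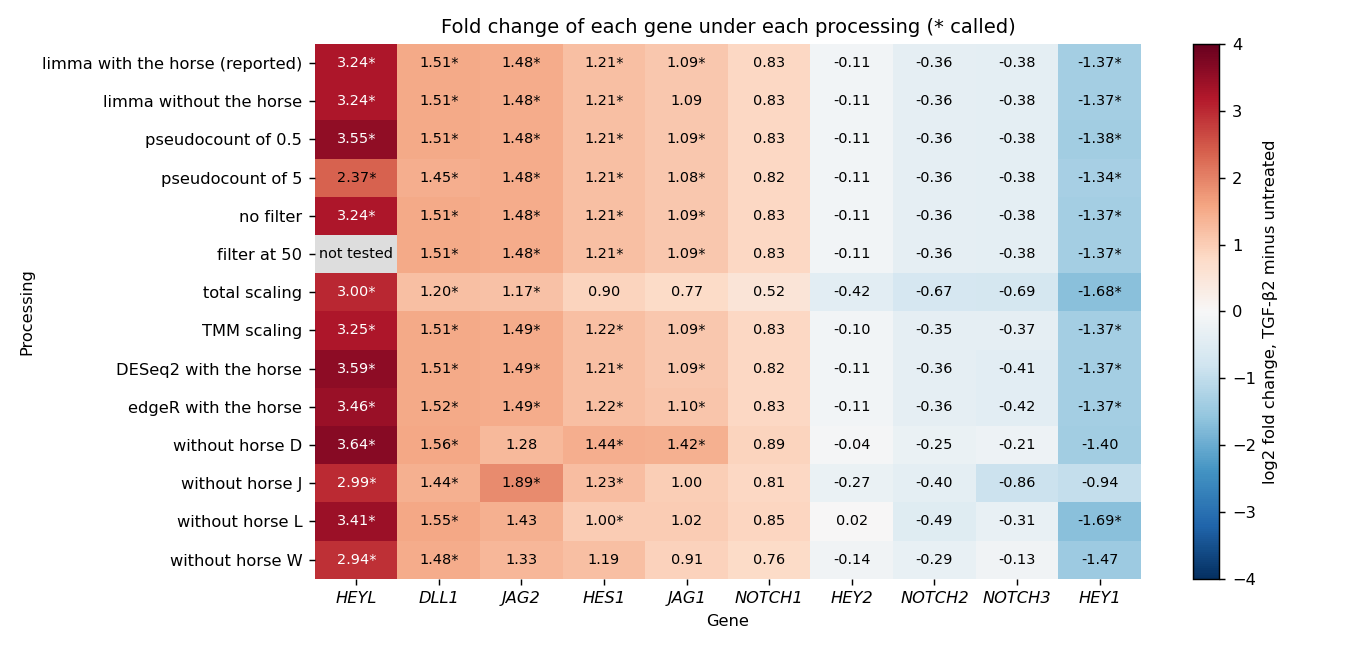
Log2 fold change (number and colour, TGF-β2 minus untreated) of each of the 10 genes (columns) under the reported fit and each alternative processing (rows), with an asterisk where the gene was called and grey where it was not tested. DLL1 was called in every row and HEYL in every row that tested it, whereas HEY1, JAG1 and JAG2 lost the call in 3 or more rows. The filter on low values fixed the direction of HEYL, except in the row with no filter.

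Outside these 10 genes, those whose levels followed each called gene most closely over the 8 libraries were found by Pearson's correlation of log2 levels, over points that share the treatment groups and, in pairs, a horse. HES1 was followed most closely by ARHGEF7 (r = 0.99), HEYL by P4HB (r = 0.99), HEY1 by IL17RC (r = 0.99), DLL1 by RCN2 (r = 0.98), JAG2 by OSBPL10 (r = 0.99) and JAG1 by DPH3 (r = 0.98). Next came TRAPPC11 and SPX for HES1, MLNR and RNF215 for HEYL, CRYAB and ARHGAP17 for HEY1, TMEM98 and STK25 for DLL1, DNAJC5 and ADRB3 for JAG2, and NUDT22 and CSRNP2 for JAG1. These 18 genes are a description of likeness over 8 libraries.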

How the data were processed

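Poly(A)-selected RNA of 8 libraries was read from both ends. Per the study's methods, Trimmomatic 0.36 trimmed the reads, STAR 2.5.2b aligned them to EquCab 3.0, and featureCounts of Subread 1.5.2 counted unique hits per gene. The authors deposited normalized counts from DESeq2, a signal that is never negative, in which each count is set against its library's size factor. Of 15267 rows, 1 had no gene name, held 0.0281% to 0.0531% of the signal and was left out. Dividing each value by the worth of 1 read in its library gave whole reads for 100% of values, within 0.001 reads. These reads gave the depth (39184554 to 57228675 per library) and served the count tests. Whether counting used strand is not given in the sources used here.

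Treatment was tested with limma 3.58.1 under R 4.3.3, with lmFit and a trended eBayes, on log2(normalized count + 1) of the 14907 genes that reached 10 normalized counts in 4 or more libraries, with treatment and horse as terms. The study calls the cultures paired but names no term for the horse, so the model without it is an alternative. Deviations from the group means correlated across genes at 0.386 to 0.609 between both libraries of a horse and at -0.400 to 0.116 between horses. Other alternatives were pseudocounts of 0.5 and 5, no filter and a filter at 50, total and TMM scaling, DESeq2 1.42.0 and edgeR 4.0.16 (quasi-likelihood) on the recovered reads, and each horse left out. The procedures were tested on simulated data. With the horse as a block, p-values set the mean change against the spread of the changes between horses, each a separate animal. Without the block they set it against the spread of levels between the libraries of a group.

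The members, pathway lists and marker lists were chosen with earlier results of these data known. Named are all members, the called pathway genes, the other ligands and receptors, the pathway gene of the highest mean level in each group without a call, the called markers (1 result is not reported here) and 5 stromal markers, and the 3 genes most like each called member. Other genes named (ADAM10, FN1, COL1A1, COL1A2, CD3E, PTPRC, CD68, SPI1, TYROBP, ITGAM, PDGFRB, LEPR, MYH11, CDH5, PECAM1, VWF and TEK) were picked after their values were seen. A symbol that is a second name of a listed gene was counted once. Coordinates and sequences are not given.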

Additional observations from a re-analysis of the deposited data

Results flagged for a closer look

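In 5 cases a library lay far from the other 3 of its group, with a gap past the 95% critical value of Dixon's test for 4 samples. They come from 66 sets of 4 values (the untreated levels, the treated levels and the changes within horses of 22 genes). Chance marks about 1 in 20 sets of normally distributed values, but the levels were taken on a linear count scale. The sets also share libraries, so that rate is only a rough guide here. The untreated library of horse W held 139 normalized counts of NOTCH1, against 346 to 357 in the other 3. The treated library of horse L held 21456 normalized counts of NOTCH2, against 10615 to 11435. The untreated library of horse W held 19961 normalized counts of THBS2, with 8682 to 9548 in the others. The treated library of horse W held 93.7 normalized counts of NEURL1, with 44.1 to 52.5 in the others. DTX3L stood at 8703 normalized counts in untreated cells of horse J, with 686 to 1993 in the others.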

How the results depend on the processing

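Of the 10 genes, 5 were called higher and 1 lower with the horse as a block, and 4 and 1 in the same model without the replicate block, which gave 834 higher and 875 lower calls over all genes against 1018 and 1090. With total scaling 3 of the 10 were called higher and 1 lower, 1 and 8 of the other pathway genes against 3 and 5, and 697 and 1832 of all genes, so that 27.6% of all calls were higher against 48.3%. With 1 horse left out, 2 to 4 of the 10 were called higher (the fewest without horse W) and 0 to 1 lower (1 only without horse L), and over all genes 547 to 1143 were called higher and 533 to 1299 lower, the fewest again without W. The other pathway genes then gave 2 to 4 higher and 4 to 7 lower calls. These fits kept the horse as a block with 3 horses, so fewer samples were tested, and a lost call does not show that horses differed. The sign turned for HEY2 without horse L (0.024, in a range of -0.27 to 0.024 over the horses left out) and for DLL3 with total scaling (-0.23), without horse D (-0.032) and without horse L (-0.025, in a range of -0.032 to 0.20), none of them called, and the cause was not tested. Of the 282 values of the 22 named genes under alternatives, 254 kept their sign and stayed called or not called, 23 lost the call, 1 gained it and 4 turned sign. A value among the 254 could still cross the p threshold. NOTCH1, for example, went from a limma adjusted p of 0.00824 to 0.154 without the horse as a block. HEYL, NEURL1, DLL3 and NOTCH4 were not tested with the filter at 50. Depth limits HEYL, whose untreated libraries held 0 to 8 reads.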

Other observations

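Of 10 endothelial markers, 7 (PECAM1, VWF and TEK among them) had no row, while the other 3 were read in all 8 libraries and 2 of them were called higher after TGF-β2 treatment. ERG, a transcription factor best known from endothelium, had 36.5 (horse D), 368 (J), 136 (L) and 25.4 (W) normalized counts in untreated and 721, 649, 928 and 471 in treated cells, with a log2FC of 3.00 and a limma adjusted p of 0.0180. KDR, a receptor for vascular endothelial growth factor, had 1.01 to 14.8 normalized counts in untreated and 15.5 to 40.7 in treated libraries. Its log2FC was 2.27, with a limma adjusted p of 0.0109. Among the untreated libraries only that of horse J reached 10 normalized counts. KDR thus passed the filter on low values mainly through its treated libraries, and the filter favoured a rise. CDH5, a defining endothelial cadherin, had 6.09 to 13.2 and 11.5 to 23.8 normalized counts and was not called. The part of endothelial cells in the Notch genes was not tested.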
